A study of Mus musculus with 20 samples.

Results

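The lysyl oxidase family has 5 members in the mouse, *Lox*, *Loxl1*, *Loxl2*, *Loxl3* and *Loxl4*. These 5 genes were taken by symbol from the 54532 genes of the count table, and all 5 passed the filter on low counts that left 15984 genes for testing. The comparison concerns the temporomandibular joint (TMJ), the joint of the jaw, after *Loxl2* had been targeted for deletion in cartilage.

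Lysyl oxidases are secreted, copper-dependent amine oxidases. They convert lysine and hydroxylysine side chains of collagen and elastin to aldehydes, which then condense into the covalent crosslinks that give cartilage, bone, tendon and vessel walls their strength. *Lox* and *Loxl1* encode enzymes made as proenzymes with a pro-region that is cut off outside the cell, whereas *Loxl2*, *Loxl3* and *Loxl4* encode enzymes with scavenger receptor domains ahead of a similar catalytic domain. Crosslinking by these enzymes matters in the joint because the collagen network of cartilage and the bone below it bears load over many years.

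Bulk RNA was sequenced from condylar heads, the rounded upper end of the lower jaw, which were taken with some of the underlying subchondral bone. Every animal, control or not, was an adult Acan-Cre; Loxl2 fl/fl mouse in which Cre, fused to the ERT2 receptor domain and driven by the aggrecan (*Acan*) promoter, can act on *Loxl2* only in aggrecan-expressing cells. The 8 control libraries came from mice given vehicle and the 12 libraries labelled knockout from mice given tamoxifen. Both sexes were used. Drug and deletion therefore cannot be told apart, other cells of the joint keep an intact *Loxl2*, and each library is a separate sample whose batch and sex the labels do not give.

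Library totals ran from 11153820 to 27045668 counts. The tissue was mixed. The 15 skeletal muscle genes of a marker list summed to between 43085 and 193267 counts per 1000000 of library size (CPM, scaled by the TMM method), and the 17 chondrocyte genes to between 148 and 7522 CPM. Control 6 and Control 8 stood apart from the other controls: their mean log2 CPM over the tested chondrocyte genes was 2.74 and 0.80, against 5.01 to 6.03 in the other 6, and Control 8 also had the highest muscle value of all libraries, 12.4. Among the libraries labelled knockout, Knockout 5 had the lowest chondrocyte value, 3.03, and the highest muscle value, 11.5. Knockout 5 was kept where these 2 controls were left out. Values without Control 6 and Control 8 are given beside most results, as fits, tests or, for shares, orders, nearest genes and lists, as plain values. They were not computed for the fits with marker lists as covariates or for the spread of the members. Among all genes, 1918 of 15984 (12.0%) were called higher in the libraries labelled knockout and 1755 (11%) lower (edgeR quasi-likelihood test, Benjamini-Hochberg adjusted p under 0.05), with a median log2 fold change of -0.02. With library totals alone as scaling these counts were 2188 and 849. In bulk tissue, fewer cells of a type and less RNA per cell cannot be told apart, and this holds for every level below.

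Expression of 3 of the 5 members was higher in the libraries labelled knockout, and none was lower, beside 12.0% and 11% of all genes tested. DESeq2 called the same 3, and all 5 fold changes were positive. *Lox* rose most, *Loxl4* and *Loxl1* rose as well, and the targeted gene *Loxl2* and its relative *Loxl3* did not pass the test. For no member did the groups separate fully, as they did for 0.213% (all 12 above) and 0.0876% (all 12 below) of all genes tested.

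*Loxl2* (ENSMUSG00000034205, GRCm38/mm10 chr14:69609068-69695834, plus strand, 15 exon blocks) is the targeted gene and encodes an enzyme best known for crosslinking collagen IV of basement membranes and for its tie to the transcription factor Snail. Its level was 16 CPM at the lowest, 70.3 at the median and 103 at the highest of the 8 controls, and 28.8, 110 and 126 CPM in the 12 libraries labelled knockout. The gene was not lower where it was labelled as deleted: 11 of 12 libraries lay above the control median and 7 above the highest control, while Knockout 12 fell among the low controls 6 and 8. In the edgeR fit the difference on the log2 scale was 0.64 with SE 0.28 (adjusted p = 0.101), and without Control 6 and Control 8 it was 0.35 (adjusted p = 0.314). Without Knockout 12 it passed, at 0.74 (adjusted p = 0.0313). The counts cover the whole gene, so transcripts that lack deleted exons are counted together with intact ones, and RNA from cells without aggrecan is included. These counts therefore do not measure the deletion itself, and every direction below is that of the libraries labelled knockout.

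*Acan* itself, the promoter of which drives the Cre, had 2.22, 104 and 276 CPM (lowest, median and highest) in control and 5.18, 52.2 and 244 CPM in the libraries labelled knockout. The ranges overlapped almost entirely (a difference of -0.69 with SE 0.69 on the log2 scale, edgeR adjusted p = 0.489).

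*Lox* (ENSMUSG00000024529, GRCm38/mm10 chr18:52516067-52529867, minus strand, 8 exon blocks), which encodes the founding enzyme of the family and crosslinks fibrillar collagen and elastin, showed the largest change of the 5. It had 9.03, 29.8 and 77.8 CPM (lowest, median and highest) in control and 42.8, 129 and 213 CPM in the libraries labelled knockout. All 12 libraries exceeded the control median and 10 exceeded the highest control, Control 5. Only that control, well above the next highest at 40.2 CPM, reached into the other group, whose lowest libraries were Knockout 12 and Knockout 5. Group means were 32.8 CPM ± 21.2 (SD, n = 8) and 128 CPM ± 53.9 (SD, n = 12). On the log2 scale *Lox* rose by 1.96 with SE 0.35 (edgeR, adjusted p = 0.00144), and by 1.67 (adjusted p = 0.00738) without Control 6 and Control 8.

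*Loxl1* (ENSMUSG00000032334, GRCm38/mm10 chr9:58287738-58313186, minus strand, 7 exon blocks) encodes the enzyme tied to elastic fibre upkeep through fibulin-5. Control libraries had 29.0, 54.1 and 92.5 CPM (lowest, median and highest), and libraries labelled knockout had 55.5, 125 and 147 CPM. All 12 were above the control median and 8 above the highest control, again Control 5. The log2 fold change of 1.09 had the smallest error of the family (SE 0.19, edgeR adjusted p = 0.00135). Without Control 6 and Control 8 it was 0.92 (adjusted p = 0.00814).

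*Loxl3* (ENSMUSG00000000693, GRCm38/mm10 chr6:83034173-83052562, plus strand, 15 exon blocks), needed in mice for the palate and the spine to form, changed least. Its values were 12.2, 49.1 and 75 CPM (lowest, median and highest) in control and 33.9, 66.3 and 95.3 CPM in the libraries labelled knockout. Both low controls, 6 and 8, had 12.3 and 12.2 CPM and the next control 45.5 CPM, and apart from these 2 the groups overlapped over most of their range. The edgeR difference on the log2 scale was 0.55 with SE 0.28 (adjusted p = 0.153), or 0.23 with SE 0.17 (adjusted p = 0.42) without those controls. *Loxl3* shares 535 bases, 11.6% of its exon length, with *Htra2*, a mitochondrial protease gene on the opposite strand, and without knowledge of strand in the counting the reads there cannot be told apart. *Htra2* itself moved by 0.19 on the log2 scale and was not called (edgeR adjusted p = 0.31).

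*Loxl4* (ENSMUSG00000025185, GRCm38/mm10 chr19:42593982-42612813, minus strand, 17 exon blocks), the least studied of the 5 enzymes, had the fewest counts, from 15 in Control 8 to 697 in Knockout 8. Control libraries had 1.15, 7.69 and 12.7 CPM (lowest, median and highest), and libraries labelled knockout had 4.61, 15.99 and 51.0 CPM. The spread was wide in both groups: 8 of 12 libraries exceeded the highest control, 2 lay below the control median, and Knockout 8 and Knockout 11 stood at the top. Its log2 difference, 1.39 with SE 0.45 (edgeR, adjusted p = 0.0296), became 1.03 (adjusted p = 0.10) without Control 6 and Control 8, and it did not pass without Control 6, Control 8 or Knockout 8 alone either (lowest value 1.16, highest adjusted p = 0.0554).

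The *Loxl4* sequence just upstream of its start is shown because its mRNA was higher while that of the structurally related *Loxl2* and *Loxl3* did not pass, and because it was the 1 member of 5 matched in the RefSeq-based promoter table of GRCm38.p6. A difference between these members is not established by that. In the test of ratios described below, *Loxl2* to *Loxl4* did not pass (exact permutation adjusted p = 0.128). *Loxl3* to *Loxl4* passed (0.0364), but not under 10 of the 20 omissions of a single library. The 243 bases at chr19:42612814-42613056 are printed 5′ to 3′ on the minus strand, ending just before the annotated start of the gene, with matches to the SMAD element CAGAC, the NF-kB consensus and the GC box GGGCGG in capitals.

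Loxl4: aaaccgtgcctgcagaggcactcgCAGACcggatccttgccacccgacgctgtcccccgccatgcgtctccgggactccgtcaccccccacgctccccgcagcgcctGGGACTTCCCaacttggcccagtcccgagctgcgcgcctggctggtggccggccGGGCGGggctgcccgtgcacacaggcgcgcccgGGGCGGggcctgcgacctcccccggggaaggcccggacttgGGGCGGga

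This window was 75.7% G or C, against a median of 52.3% over 32851 promoter windows cut to the same length. It held 3 copies of the GC box, found on either strand in 31.8% of those windows, and 1 stretch that matches the NF-kB consensus on both strands, a match found in 7.02%. It held 1 CAGAC (41.3% of windows) and 1 hypoxia-factor core, ACGTG or GCGTG, on the opposite strand (37.8%). The AP-1 element TGACTCA (4.37%) and TATAAA (12.2%) were not in this window on either strand. None of the matches overlapped another apart from the NF-kB stretch on its 2 strands, and they are letters only, not measured binding.

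**Figure D1:**
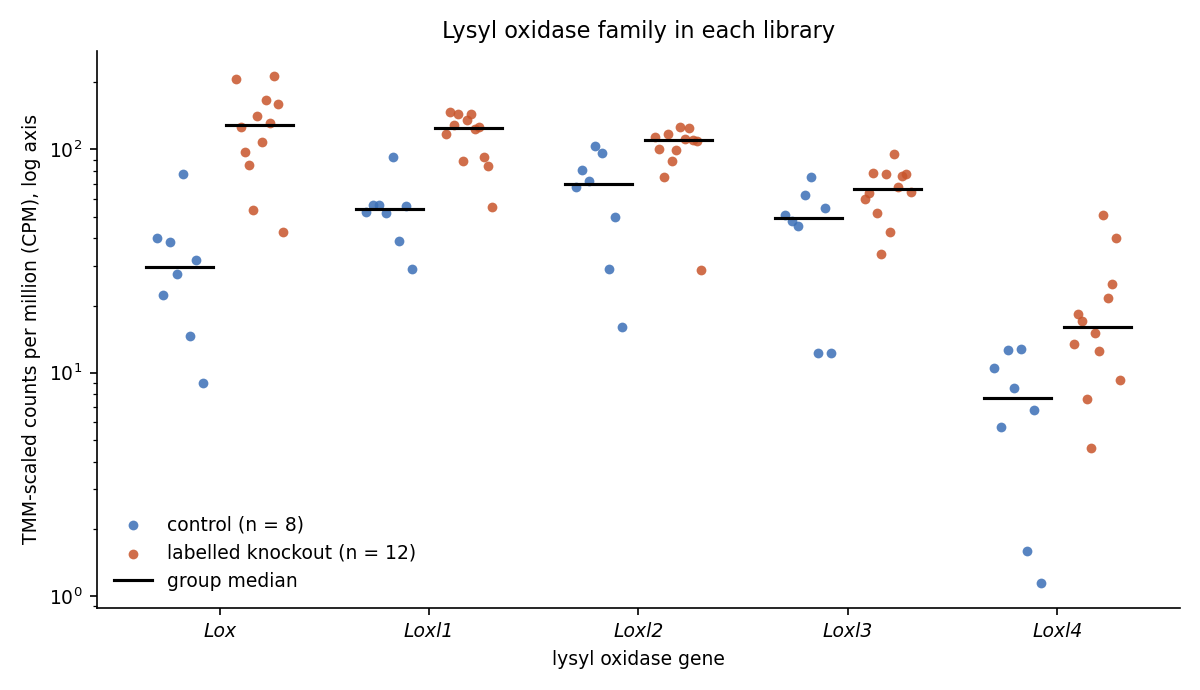
CPM (TMM-scaled, log axis) of the 5 lysyl oxidase genes, 1 point per library, with 8 control and 12 libraries labelled knockout and a bar at each group median. *Lox* shows the widest gap, from a median of 29.8 to 129 CPM, and the 2 lowest controls of every member are Control 6 and Control 8.

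Counting error was small beside the spread between animals. From the mean counts it was between 2.0% and 8.63% of the mean for the members in either group, whereas the standard deviation of CPM was between 25.1% and 69.1% of the mean. *Lox*, *Loxl1*, *Loxl2* and *Loxl3* varied more in control (33.8% to 64.7%) than in the libraries labelled knockout (25.1% to 42.2%), and *Loxl4* varied by 60.5% and 69.1%. These differences in spread were not tested.

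Levels of the members were compared with each other per kilobase of annotated exon, since their exon lengths run from 3297 to 5405 bases. Summed per kilobase, the family had 16.6, 49.5 and 81.4 CPM per kilobase (lowest, median and highest) in control and 47.4, 107 and 126 in the libraries labelled knockout. *Loxl1* gave the most and *Loxl4* the least in both groups. *Lox* made up 13.9% ± 3.51 (SD, n = 8) of the family sum in control, with single libraries from 9.63% to 20.0%. In the libraries labelled knockout its share was 25.9% ± 6.96 (SD, n = 12), with a span of 17.8% to 38.7%. *Loxl2* went from 24.8% to 18.7% and *Loxl3* from 20.0% to 15.0%, while *Loxl1*, at 37.9% and 35.9%, and *Loxl4*, at 3.45% and 4.50%, had shares closer to each other. Over the 6 controls other than Control 6 and Control 8 the *Lox* share was 14.4% ± 3.95 (SD, n = 6) and that of *Loxl1* 33.2% ± 3.09 (SD, n = 6).

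The order by median in control was *Loxl1*, *Loxl2*, *Loxl3*, *Lox* and *Loxl4*, at 16.4, 13, 10.7, 6.24 and 1.83 CPM per kilobase. *Lox* was the fourth in 7 of 8 controls, and in all 6 other than Control 6 and Control 8, where the medians had the same order. In the libraries labelled knockout the order was *Loxl1*, *Lox*, *Loxl2*, *Loxl3* and *Loxl4*, at 37.8, 26.9, 20.3, 14.4 and 3.80 CPM per kilobase, and *Lox* was the highest member in 3 of 12 libraries and the second in 5. Neighbours in each order were compared within libraries by an exact two-sided sign-flip permutation test, adjusted over the 8 pairs of neighbours. The pairs and their direction were taken from the medians of these same libraries, so the test is no independent check of the order. *Loxl2* and *Loxl3* did not differ beyond their spread in control (mean log2 ratio 0.32, adjusted p = 0.0714) or in the libraries labelled knockout (0.35, adjusted p = 0.126). The other 6 pairs passed, but not all firmly. *Lox* over *Loxl4* in control and *Loxl3* over *Loxl4* in the libraries labelled knockout kept the call in every omission of a single library. In the latter group *Lox* over *Loxl2* lost it in 1 of 12. With single libraries omitted, *Loxl1* over *Loxl2* and *Loxl3* over *Lox* in control lost the call in 7 of 8 cases each (adjusted p up to 0.0625), and *Loxl1* over *Lox* in the libraries labelled knockout in 8 of 12 (up to 0.0714). *Loxl3* exceeded *Lox* in control by 0.52 on the log2 scale (exact permutation, adjusted p = 0.0375), and *Lox* exceeded *Loxl2* in the other group by 0.46 (exact permutation, adjusted p = 0.0375), which holds in 9 of 12 libraries.

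**Figure D2:**
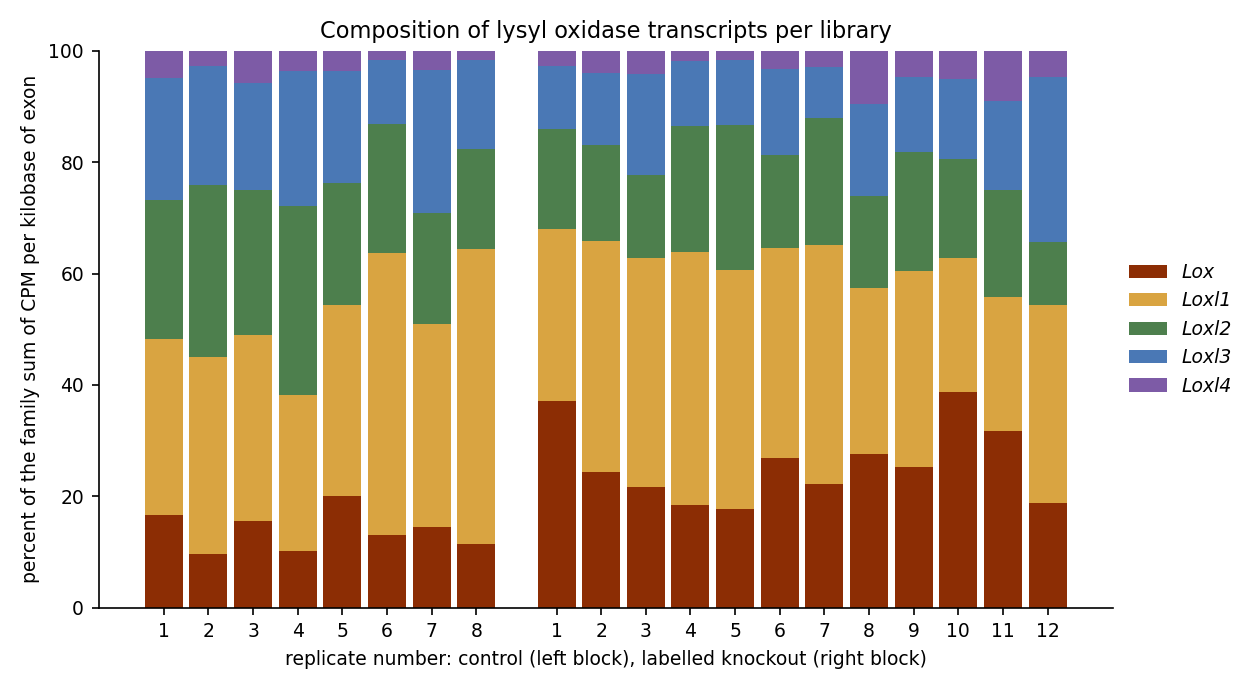
Share of each member in the family sum of CPM per kilobase of exon, in percent, 1 stacked bar per library. The *Lox* share runs from 9.63% to 20.0% in the 8 controls (left block) and from 17.8% to 38.7% in the 12 libraries labelled knockout (right block).

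Whether the members changed by different amounts was asked with the log2 ratio of their counts within each library, which does not depend on how libraries are scaled. The 10 pairs were tested by an exact two-sided permutation over all 125970 assignments of libraries to groups. *Lox* rose against 3 of its relatives. The *Lox* to *Loxl3* ratio went from a mean log2 of -0.47 ± 0.51 (SD, n = 8) to 0.86 ± 0.60 (SD, n = 12), a difference of 1.33 (SE 0.25, exact permutation p = 0.000167, adjusted 0.000834), and 11 of 12 libraries lay above every control. Against *Loxl2* the difference was 1.30 (SE 0.25, exact permutation adjusted p = 0.000834), with 10 of 12 above every control. Against *Loxl1* it was 0.96 (SE 0.26, exact permutation adjusted p = 0.00884). The 3 ratios also passed without Control 6 and Control 8, with differences of 1.46, 1.34 and 0.76 (exact permutation, highest adjusted p = 0.0345).

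The *Loxl3* to *Loxl4* ratio fell by 0.75 on the log2 scale (SE 0.26, exact permutation adjusted p = 0.0364), and all 12 libraries labelled knockout lay below the control median. That call did not hold without Control 6 and Control 8 (-0.61, adjusted p = 0.0902) or under 10 of the 20 omissions of a single library. *Loxl2* and *Loxl3* had nearly equal mean ratios in the 2 groups (difference 0.03, SE 0.25, exact permutation adjusted p = 0.932), although single libraries spread from -1.17 to 1.57. The other 5 pairs had differences between -0.72 and 0.58 and did not pass. Of these, *Lox* to *Loxl4* (0.84, adjusted p = 0.0304), *Loxl1* to *Loxl2* (0.59, adjusted p = 0.0278) and *Loxl1* to *Loxl3* (0.70, adjusted p = 0.0304) passed in the exact permutation test without Control 6 and Control 8.

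Relations among the members were then computed within each group on log2 CPM, 10 pairs in 2 groups, with permutation p-values adjusted over the 20. In control all 10 pairs rose together, with Pearson r from 0.82 to 0.95 and adjusted p from 0.00546 to 0.0184. Over the 6 controls other than Control 6 and Control 8 r ran from 0.18 to 0.84 and no pair passed in the exact permutation test (lowest adjusted p = 0.156). The pairs differed in this: *Lox* had r = 0.84 with *Loxl1* and r = 0.80 with *Loxl4* (exact permutation, unadjusted p = 0.0958 and 0.0389), whereas *Lox* with *Loxl2*, *Loxl2* with *Loxl4* and *Loxl3* with *Loxl4* were at 0.18, 0.29 and 0.30. Of these controls, Control 5 was the highest in *Lox* (77.8 CPM, next 40.2) and in *Loxl1* (92.5 CPM, next 56.7). The value of r with Control 5 left out as well was not computed. Spearman's rho passed in the 8 controls only for *Lox* and *Loxl4* (rho = 0.95, exact permutation adjusted p = 0.0228).

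In the 12 libraries labelled knockout the pairs were less alike. *Loxl3* and *Loxl4* had the highest value, r = 0.83 (permutation p = 0.00068, adjusted 0.0068) and rho = 0.76 (permutation p = 0.00513, adjusted 0.0513), with r = 0.82 without the 2 libraries farthest from the *Loxl3* median. *Lox* and *Loxl4* had r = 0.72 (adjusted p = 0.0167) and rho = 0.73 (adjusted p = 0.0596), with r = 0.55 without the 2 farthest libraries and an adjusted p of 0.0595 without Knockout 5. *Loxl2* also passed with *Lox* (r = 0.70, adjusted p = 0.0181) and with *Loxl1* (r = 0.74, adjusted p = 0.0378). Both of those values rest on Knockout 12, the lowest library of all 3 genes: without it r was 0.40 and 0.16, and rho over the 12 libraries was 0.38 and 0.40 (adjusted p = 0.304 and 0.288).

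*Loxl3* showed no relation to the targeted gene or to *Loxl1* in the libraries labelled knockout, with r = -0.04 for *Loxl2* (permutation p = 0.906, adjusted 0.954) and r = 0.00048 for *Loxl1* (permutation p = 0.999). The rho values were -0.27 and -0.12 (adjusted p = 0.503 and 0.796). The remaining 4 pairs had r between 0.11 and 0.54 and did not pass. *Lox* and *Loxl3* among them passed without Knockout 12 (r = 0.71, permutation adjusted p = 0.0235). Whether a pair differs in r between the groups was not tested.

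**Figure D3:**
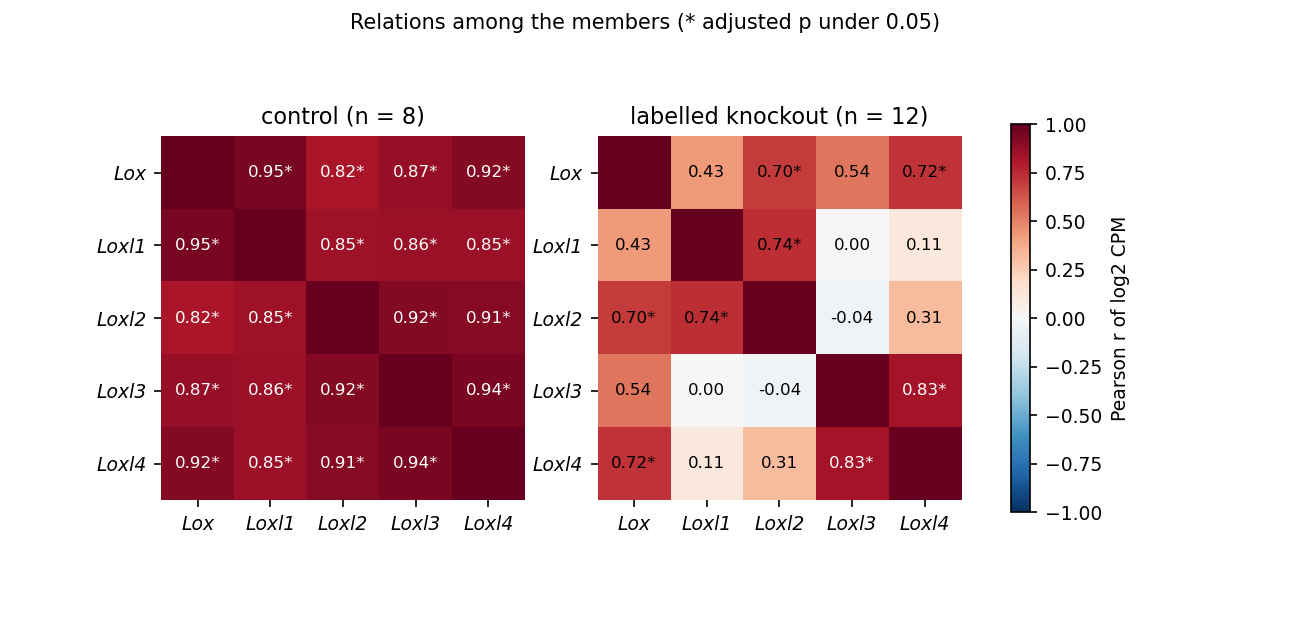
Pearson r of log2 CPM for each pair of members in 8 control libraries (left) and 12 libraries labelled knockout (right), with asterisks where the permutation p adjusted over 20 pairs is under 0.05. All control values lie between 0.82 and 0.95 (0.18 to 0.84 without Control 6 and Control 8), and on the right *Loxl3* with *Loxl4* is the highest at 0.83.

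Markers of the cell types in the tissue were set beside the members, as the same samples also differed in those. The edgeR calls per list are to be read beside the 12.0% of all genes tested that were called higher and the 11% called lower. Osteoclast genes, of the cells that resorb bone, were higher for 12 of 13, and the list summed to between 272 and 1670 CPM in control and between 803 and 8591 CPM in the libraries labelled knockout. Osteoblast and osteocyte genes, of the cells that build and maintain bone, were higher for 8 of 15, from 1436 to 13522 CPM and from 4594 to 41093 CPM. Skeletal muscle genes were lower for 7 of 15, from 60542 to 193267 CPM and from 43085 to 102484 CPM. None of the genes of these 3 lists had a median count of 0.

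Chondrocyte genes were called higher for 2 of 14 tested, *Col9a1* and *Col11a2*, and the list of 17 summed to between 148 and 4645 CPM and between 2127 and 7522 CPM. *Matn1*, a further gene of that list, had a median count of 0. Of the other lists, 4 of 13 fibroblast and tendon genes, 8 of 10 macrophage, 6 of 8 mast cell and 1 of 9 neutrophil genes were higher and 1 of 9 adipocyte genes was lower. None of 10 smooth muscle and pericyte, 10 endothelial, 9 erythroid and 6 B cell genes was called by edgeR, with 1, 0, 4 and 1 at an unadjusted p under 0.05. DESeq2 called 2 of 10 B cell genes and 0 of the other 3 lists, beside 2191 higher and 2031 lower of 18767 genes. Without Control 6 and Control 8 the osteoclast list had 10 genes higher, the osteoblast and osteocyte list 3, the chondrocyte list 1 and the muscle list 1 lower. In that fit 1016 of 16551 genes were called higher and 687 lower. Of these cell types, 4 lists were used as covariates of the members' differences below, and the part of the others was not tested.

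Relations of each member with 5 of the lists were computed within groups. In control all 5 members passed with the chondrocyte list (r from 0.80 to 0.94, exact permutation, highest adjusted p = 0.0477). They also passed there with the osteoblast and osteocyte list (r from 0.89 to 0.96), and all but *Loxl3* with the fibroblast and tendon list. Without the 2 controls farthest from the list median, r with the chondrocyte list ran from -0.59 (*Loxl4*) to 0.52 (*Loxl3*), and no relation passed. In the libraries labelled knockout *Loxl3* and *Loxl4* went with chondrocyte genes, and *Loxl1* and *Loxl2* did not pass with any of the 5. For *Loxl3* and the mean log2 CPM of the chondrocyte list r was 0.91 (permutation p = 1e-05, the smallest that 100000 resamples can give, adjusted over 50 relations 0.0005) and rho was 0.81 (permutation p = 0.00198, adjusted 0.0301). For *Loxl4* r was 0.87 (permutation p = 0.00025, adjusted 0.00625) and rho was 0.82 (permutation p = 0.00178, adjusted 0.0301). Without the 2 libraries farthest from the list median r was 0.81 and 0.71, with permutation p of 0.00379 and 0.0215, and neither passed the adjustment (0.189 and 0.359). The plot of members against this list shows Knockout 5 at the low end and Knockout 8 at the high end for both genes.

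*Loxl2*, the gene targeted in chondrocytes, had r = 0.05 with the chondrocyte list in the libraries labelled knockout (permutation p = 0.878) and rho = 0.03 (permutation p = 0.937). In control r was 0.92 (exact permutation adjusted p = 0.0276) and rho 0.62 (exact permutation adjusted p = 0.262), but r was -0.06 without the 2 controls farthest from the list median. The difference between the groups was not tested. *Loxl1* in control passed with 4 lists, namely chondrocyte (r = 0.82), osteoblast and osteocyte (0.96), osteoclast (0.87) and fibroblast and tendon (0.86), in the exact permutation test (adjusted p from 0.00909 to 0.0276). Without the 2 farthest controls these r values were 0.03, 0.93, 0.48 and 0.45, and none passed the adjustment (lowest exact permutation adjusted p = 0.382). Over all 8 controls rho passed only for the fibroblast and tendon list (0.98, exact permutation adjusted p = 0.0198).

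In the libraries labelled knockout *Lox* had r = 0.61 (permutation adjusted p = 0.0766) and rho = 0.74 (adjusted 0.0566) with the chondrocyte list. It rose with the osteoblast and osteocyte list (r = 0.72, permutation p = 0.00995, adjusted 0.0276, and rho = 0.78, adjusted 0.0431) and fell with the skeletal muscle list (r = -0.75, permutation p = 0.00434, adjusted 0.0221, and rho = -0.80, adjusted 0.0301). Without the 2 libraries farthest from each list median these r values were 0.62 and -0.79 and did not pass the adjustment. *Loxl3* and *Loxl4* also passed with the osteoblast and osteocyte list (r = 0.82 and 0.75, permutation adjusted p = 0.0221 for each), with r = 0.56 and 0.40 without the farthest libraries.

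**Figure D4:**
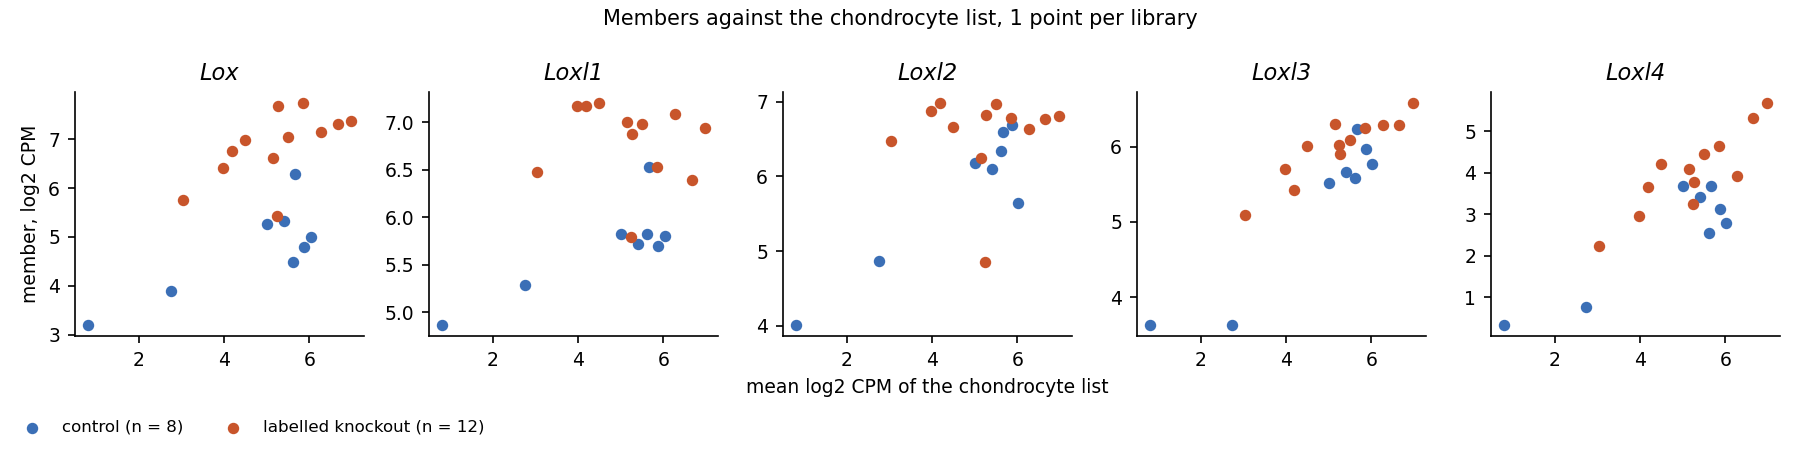
Log2 CPM of each member against the mean log2 CPM of the tested chondrocyte genes, 1 point per library, 8 control and 12 libraries labelled knockout. *Loxl3* and *Loxl4* rise along the list in the libraries labelled knockout (r = 0.91 and 0.87), *Loxl2* does not (r = 0.05), and the 2 points at the far left are Control 8 and Control 6.

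The chondrocyte, skeletal muscle, osteoblast and osteocyte, and osteoclast lists were also used as covariates, 1 at a time, in the fit across all genes. At equal chondrocyte score all 4 members other than *Loxl2* were higher: *Lox* by 1.83, *Loxl1* by 1.07, *Loxl4* by 1.08 (SE 0.24, edgeR adjusted p = 0.00467) and *Loxl3* by 0.47 (SE 0.13, edgeR adjusted p = 0.0138). The error of *Loxl3* was 0.28 without this covariate. Control 8 and Control 6 had the lowest chondrocyte scores of all libraries, 0.80 and 2.74, and the covariate fits were not repeated without them. With group alone and without these 2 controls, *Loxl3* was at 0.23 and *Loxl4* at 1.03 (edgeR adjusted p = 0.42 and 0.10), and neither passed. At equal chondrocyte score *Loxl2* stood at 0.65 (SE 0.24, adjusted p = 0.0609). It was at 0.39, 0.31 and 0.27 with the muscle, osteoblast and osteocyte, and osteoclast lists (edgeR adjusted p = 0.487, 0.61 and 0.924). At equal skeletal muscle score *Lox* (1.31) and *Loxl1* (0.88) passed (edgeR adjusted p = 0.0199 for both).

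At equal osteoblast and osteocyte score *Lox* (1.13, edgeR adjusted p = 0.03) and *Loxl1* (0.83, edgeR adjusted p = 0.0374) still passed. *Loxl4* was then at 0.15 (SE 0.35, adjusted p = 0.86) and *Loxl3* at -0.12 (SE 0.19, adjusted p = 0.78), a change of sign. At equal osteoclast score no member passed, with 0.94 (SE 0.39, edgeR adjusted p = 0.559) for *Lox* and 0.49 (SE 0.22, adjusted p = 0.578) for *Loxl1*, and 0 of 15984 genes were called, with 1307 at an unadjusted p under 0.05. The osteoclast score, the mean log2 CPM of the list, ran from 2.98 to 5.41 in control and from 4.39 to 7.47 in the libraries labelled knockout. Only Control 5, at 5.41, lay within the range of the other group, and the next control was at 4.33. The groups thus shared few scores at which they could be compared.

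**Figure D5:**
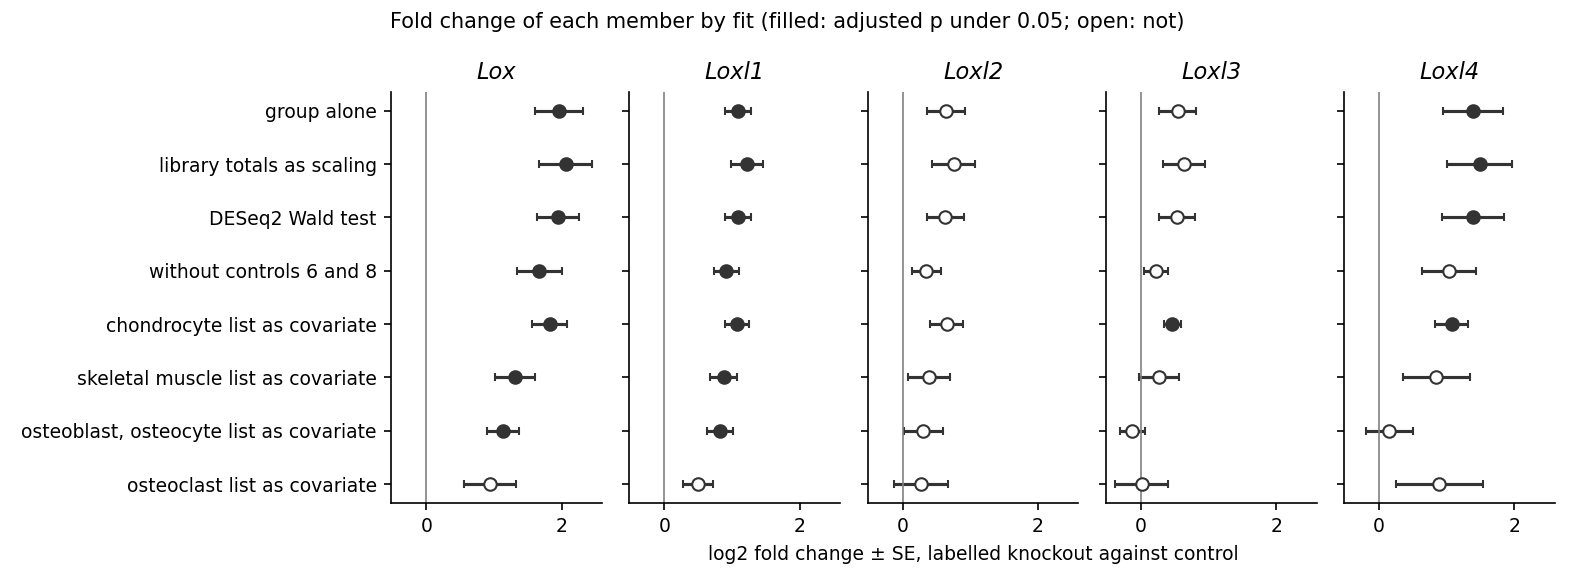
Log2 fold change ± SE of each member (libraries labelled knockout against control) under 8 fits, filled where the edgeR or DESeq2 adjusted p over all genes is under 0.05. *Lox* and *Loxl1* are filled in all fits but the one with the osteoclast list, *Loxl3* is filled in 1 fit, with the chondrocyte list, and *Loxl2* in none.

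The genes whose levels most resembled each member were found among 13953 protein-coding tested genes by Pearson r of log2 CPM over the 20 libraries, with each group centred on its own mean. These values are descriptions, and the points share libraries and their tissue makeup. Without Control 6 and Control 8 (18 libraries) r of the same genes ran from 0.70 to 0.79 for *Loxl2* and from 0.84 to 0.92 for the other members. The nearest genes of *Loxl3* were *Itga10* (r = 0.96), a collagen-binding integrin subunit of chondrocytes, *Col27a1* (0.96), a fibrillar collagen of cartilage, *Chst3* (0.95), which sulfates chondroitin chains, *Acan* (0.95), the main cartilage proteoglycan, and *Sdk2* (0.94). None of the 5 was called between the groups. *Acan*, with the lowest fold change of the 5, had a mean of 115 CPM in control and 71.3 CPM in the libraries labelled knockout, and it kept r = 0.97 and 0.94 with *Loxl3* within the groups.

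*Loxl4* was nearest to *Col12a1* (r = 0.95), a fibril-associated collagen, *Capn6* (0.93), *Postn* (0.93), the matricellular protein periostin, *Fkbp14* (0.93), a collagen folding enzyme of the endoplasmic reticulum, and *Panx3* (0.92), a channel of osteoblasts and hypertrophic chondrocytes. The first 4 were higher in the libraries labelled knockout, with log2 differences of 1.17, 1.05, 1.39 and 0.85 (edgeR, adjusted p from 0.00428 to 0.0209), and *Panx3* was at 1.38 (SE 0.70, adjusted p = 0.156).

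*Lox* was nearest to *Rftn2* (r = 0.93), *Gja1* (0.92), which encodes the gap junction protein connexin 43 of bone cells, *Ppic* (0.92), a cyclophilin, *Fndc3b* (0.90) and *Col5a2* (0.90), a chain of the collagen that sets fibril width. All 5 were higher, with log2 fold changes from 0.92 to 1.60. *Loxl1* was nearest to *Cmtm3* (0.90), *Csk* (0.90), a kinase that restrains Src, *Def6* (0.90), *Litaf* (0.88) and *Pmepa1* (0.87), a TGF-beta-induced inhibitor of SMAD signalling, and all 5 were higher by 0.67 to 0.96.

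*Loxl2* was nearest to *Cnrip1* (0.88), *2700062C07Rik* (0.88), *Col5a2* (0.87), *Efcab1* (0.86) and *Cd86* (0.86), a costimulatory molecule of antigen-presenting cells. *Cnrip1* (0.56) and *Col5a2* (1.60) were called higher and the other 3 were not. *Col5a2* was the only gene named for 2 members. Between members the closest pair on this measure was *Loxl3* with *Loxl4* (r = 0.87), where 70 genes were nearer to *Loxl3* than *Loxl4* was, and the least close was *Loxl1* with *Loxl4* (r = 0.47). This measure was not computed between members without Control 6 and Control 8. In the other controls alone *Loxl3* with *Loxl4* had r = 0.30 (exact permutation, unadjusted p = 0.56).

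Genes that work with lysyl oxidases were taken from 8 lists of substrates, collagen-modifying enzymes, processing factors, copper handling and upstream signals. Of 97 such genes tested, 44 were called higher and 3 lower (edgeR), beside 12.0% and 11% of all genes, with a median log2 fold change of 0.48 against -0.02 over all genes. The count of higher genes was 35 without Control 6 and Control 8, 20 with the muscle list, 12 with the osteoblast and osteocyte list and 0 with the osteoclast list as covariate. Higher calls over all genes fell as well under these fits, from 1918 of 15984 to 1016 of 16551 without the 2 controls. With the 3 lists in the same order they were 451, 206 and 0 of 15984. Among the genes named below as called, *Heph*, *Eln*, *Cdh2*, *Hif1a*, *Egln3* and *Vegfa* were not called without Control 6 and Control 8.

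Fibrillar collagens, the main substrates of lysyl oxidases, were higher for 8 of 11 genes, with a list median of 1.59. *Col1a1*, the bone and fibrous collagen chain, which the osteoblast list also holds, had 3240 CPM ± 2965 (SD, n = 8) in control against 18303 CPM ± 9541 (SD, n = 12), a rise of 2.50 with SE 0.45 on the log2 scale (edgeR, adjusted p = 0.00144). *Col1a2* rose by 2.19 and *Col11a1*, a chain of the minor cartilage collagen, by 2.15. *Col2a1*, the main collagen of cartilage, was at 0.99 (SE 0.68, edgeR adjusted p = 0.299), *Col27a1* at 0.37 and *Col24a1* at 0.35, and these 3 were not called. Type IV collagen, the substrate most tied to *Loxl2*, had 0 of 6 genes called by edgeR and 0 by DESeq2, with a list median of -0.09. By either tool 1 of the 6, *Col4a2* (0.43, SE 0.17, edgeR adjusted p = 0.0759), had an unadjusted p under 0.05. *Col4a2* and *Col4a1* (0.37, SE 0.19, edgeR adjusted p = 0.161) were the abundant chains, with control means of 149 and 166 CPM. *Col4a3*, *Col4a4*, *Col4a5* and *Col4a6* had control means of 1.21, 1.61, 4.48 and 0.62 CPM and log2 fold changes from -0.32 to -0.07. The list median thus rests largely on chains with low counts.

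Elastic fibre genes were higher for 7 of 17, with a list median of 0.62. *Mfap2*, a microfibril protein, rose by 1.25 (SE 0.22, edgeR adjusted p = 0.00144), *Efemp2*, the fibulin-4 gene that brings *Lox* protein to elastin, by 1.20, and *Fbn1*, fibrillin-1, by 1.11. *Eln*, the elastin gene, named here after its value was seen, rose from 25.5 to 39.0 CPM, by 0.62. *Fbln5*, the fibulin that binds the *Loxl1* enzyme, was at 0.41 (SE 0.18, edgeR adjusted p = 0.102).

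Enzymes that hydroxylate and glycosylate collagen lysines before crosslinking, with their partners, were higher for 9 of 11, with a list median of 0.77. *Fkbp10*, which supports telopeptide hydroxylation, went up by 1.62 (SE 0.29, edgeR adjusted p = 0.00136), with a mean of 51.8 CPM ± 24.1 (SD, n = 8) in control against 160 CPM ± 53.8 (SD, n = 12). *Serpinh1*, the collagen chaperone HSP47, rose by 1.43 and *P3h4* by 0.91. *Plod2*, the telopeptide lysyl hydroxylase itself, was at 0.77 (SE 0.32, edgeR adjusted p = 0.0903) and was not called, nor was *Colgalt2*.

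Of 12 genes for proenzyme processing and scaffolds tested, 5 were higher, with a list median of 0.55. *Adamts2*, a procollagen N-proteinase, rose by 1.43 (SE 0.28, edgeR adjusted p = 0.00206), *Postn*, on which processing proteins assemble, by 1.39, and *Pcolce*, the enhancer of C-proteinase, by 1.36. *Bmp1*, the proteinase that cuts the *Lox* proenzyme, was the gene with the fourth largest rise of the list, at 1.24 (SE 0.23, edgeR adjusted p = 0.00164). *Fn1*, the fibronectin scaffold, was at 0.49 (SE 0.39, adjusted p = 0.382).

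Copper supply genes were higher for 5 of 11 tested, with a list median of 0.46. *Heph*, a copper ferroxidase, rose by 1.05 (SE 0.37, edgeR adjusted p = 0.0477), *Mt1*, a metallothionein that holds copper and zinc, by 0.94, and *Atox1*, the copper chaperone of the secretory pathway, by 0.69. *Atp7a*, the pump that loads copper into lysyl oxidases, had a mean of 1.74 CPM in control and 2.02 CPM in the other group (log2 fold change 0.20, SE 0.37, edgeR adjusted p = 0.73).

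Upstream signals were mixed: 4 of 19 were higher and 2 lower, with a list median of -0.06. *Tgfb1*, the growth factor that induces many matrix genes, had 42.5 CPM ± 14.0 (SD, n = 8) in control against 88.6 CPM ± 19.7 (SD, n = 12) and rose by 1.06 (SE 0.18, edgeR adjusted p = 0.00125), and its receptors *Tgfbr2* and *Tgfbr1* rose by 0.66 and 0.63. *Ccn2*, a TGF-beta target, was at 0.17 (SE 0.27, edgeR adjusted p = 0.677). Among hypoxia genes *Hif1a*, the fourth of those called higher, rose by 0.49 (edgeR adjusted p = 0.0301), whereas its targets *Egln3* and *Vegfa* fell by 0.69 (SE 0.22, edgeR adjusted p = 0.0302) and by 0.48 (SE 0.14, edgeR adjusted p = 0.0185).

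Snail factors and genes of the epithelial-mesenchymal transition, which have been tied to *Loxl2* and *Loxl3* in tumours, were higher for 6 of 10 and lower for 1, with a list median of 0.65. *Cdh2*, N-cadherin, rose by 1.84 (SE 0.49, edgeR adjusted p = 0.0108), *Snai1* by 1.15 and *Twist1* by 1.10. *Snai3* went the other way: with 15.2 CPM ± 3.20 (SD, n = 8) in control against 8.23 CPM ± 2.65 (SD, n = 12), it fell by 0.88 (SE 0.18, edgeR adjusted p = 0.00257), with all 12 libraries labelled knockout below the control median. *Cdh1*, E-cadherin, was at -0.56 (SE 0.90, edgeR adjusted p = 0.684).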

How the data were processed

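RNA of 20 bulk condyle libraries was sequenced. The authors trimmed paired-end reads, mapped them to mm10 and used featureCounts to tally reads over genes, and the deposited counts were used as given. Aligner, annotation release and strand setting are not given in the sources used here. Of 54532 table genes, 54495 matched GENCODE M21, which gave names, exon lengths and coordinates.

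Groups came from the labels, and the 5 members and all lists were chosen with earlier results of these data known. Counts were filtered (filterByExpr), scaled by TMM and tested with edgeR 4.0.16 quasi-likelihood tests (limma 3.58.1, R 4.3.3), adjusted by Benjamini-Hochberg over 15984 genes at 0.05. On simulated counts with 200 of 15984 genes changed by a log2 fold of 1.5, 161 were recovered with 6 false calls. Ratios (0.5 counts added), orders and correlations (log2 CPM, prior count 2) used permutation tests in Python 3.11.15 with numpy 2.4.6, scipy 1.17.1 and pandas 2.3.3, two-sided and exact in control, with 100000 resamples in the 12 libraries. Named genes were the members, the 5 nearest genes of each, up to 3 called genes per partner list and direction with the largest change, and list genes described as not passing. Genes named outside this rule (*Htra2*, *Bmp1*, *Eln*, *Hif1a*) were chosen after their values were seen. Alternatives were DESeq2 1.42.0, other scalings and filters, marker lists as covariates, a replicate block, omission of single libraries and, chosen after seeing the data, of Control 6 and Control 8.

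Depth was 11153820 to 27045668 counts, so that 3 counts equal 0.111 to 0.269 CPM, which covers counting error only. No 2 libraries were alike within sampling noise (smallest chi-square per degree of freedom 32.9 over 16161 genes). The study's methods give as many mice per group as there are libraries, but the labels tie no library to an animal, so p-values measure the spread between these samples. Promoter sequence came from a RefSeq-based table (GRCm38.p6), which matched 1 of 5 members.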

Additional observations from a re-analysis of the deposited data

Results flagged for a closer look

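Control 5 stood apart from the other 7 controls in 2 members. Its *Lox* level, 77.8 CPM, was the highest of the group, with the next at 40.2 CPM, and its *Loxl1* level, 92.5 CPM, was the highest, with the next at 56.7 CPM. In both cases the gap to the nearest control was a larger part of the group's range than Dixon's 95% limit for 8 samples allows. Of 25 sets of values examined in control 2 passed this limit, and chance passes about 1 in 20. On the log2 scale neither passed. The 12 libraries labelled knockout were too many for this rule.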

How the results depend on the processing

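*Lox* and *Loxl1* passed under every scaling, filter, tool and omission of a single library, and lost their calls only with the osteoclast list as covariate (0.94 and 0.49 on the log2 scale), where 0 members and 0 and 0 partner genes (higher, lower) were called. *Loxl4*, 0.89 in that fit, was also lost with the muscle (0.85) and osteoblast (0.15) lists and without Control 6 and Control 8 (1.03), and ran from 1.16 to 1.54 when single libraries were left out. *Loxl2* ran from 0.50 to 0.78. *Loxl3* passed with the chondrocyte list (0.47) and changed sign with the osteoblast list (-0.12). The fits with lists were not repeated without Control 6 and Control 8. Partner genes called higher numbered 20 with the muscle and 12 with the osteoblast list, and 1 was called lower under each of muscle list, osteoblast list, replicate block and omission of Control 6 and Control 8. Over all genes, higher calls also fell with the muscle and osteoblast lists, from 1918 to 451 and 206 of 15984, and lower calls from 1755 to 330 and 69. Library totals alone moved the median of all genes to 0.12, with 2188 higher and 849 lower calls, and called the same 3 members. The causes were not tested.

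The replicate numbers do not pair the libraries: same-numbered pairs correlated from -0.36 to 0.17, and 0 of 8 controls correlated best with their own number. With the replicate block (16 libraries) *Loxl4* was 1.10 and was not called (edgeR adjusted p = 0.265). It was not called in those libraries without the block either (1.22, edgeR adjusted p = 0.0855). With the block 0 of 10 ratios passed, although *Lox* to *Loxl3* (1.40) and *Lox* to *Loxl2* (1.18) differed about as much and 8 pairs allow no exact p under 0.00781. The *Loxl1* to *Loxl4* ratio was 0.00667 (0.088 without Control 6 and Control 8), and *Lox* (2.08) and *Loxl1* (1.31) still passed. All genes called fell from 1794 higher and 1486 lower to 1100 and 686.

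When single libraries were left out, the *Loxl2* to *Loxl3* ratio ran from -0.072 to 0.18, and r in the libraries labelled knockout from -0.087 to 0.56 for *Lox* with *Loxl1*, -0.23 to 0.14 for *Loxl1* with *Loxl3*, -0.13 to 0.28 for *Loxl1* with *Loxl4* and -0.10 to 0.069 for *Loxl2* with *Loxl3* (0.19 with library totals). Member pairs past the threshold then numbered 0 to 10 in control and 2 to 4 in the other group, and neighbour pairs in the order 1 to 2 and 1 to 3. Without Control 6 and Control 8, 0 control pairs passed. Without the 2 farthest libraries 0 list relations passed in control and 0 in the other group, and r changed sign in control for the chondrocyte list with *Lox* (-0.19), *Loxl2* (-0.062) and *Loxl4* (-0.59), for the osteoclast list with *Loxl2* (-0.10) and for the fibroblast list with *Loxl2* (-0.19) and *Loxl3* (-0.28). In the libraries labelled knockout it changed sign for the chondrocyte list with *Loxl2* (-0.056), the osteoclast list with *Loxl4* (-0.0075) and the fibroblast list with *Lox* (0.22), *Loxl1* (-0.16), *Loxl3* (0.0060) and *Loxl4* (0.27). Of 35 values that changed sign under some alternative, 4 had passed before and 0 passed after. Low counts limited *Loxl4* most, with 15 and 23 counts in Control 8 and Control 6.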
